A study of Mus musculus with 6 samples.

Results

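The glycolysis enzymes and the hypoxia-inducible factor (HIF) pathway were followed as a set of 46 genes in 4T1 cells, a mouse mammary carcinoma line. The genes were chosen by name, as rows of the deposited table whose symbol equals a listed one, and all 46 were found once among 22105 features with a gene identifier. By role they were 2 glucose transporters, 17 glycolytic enzymes, 2 bifunctional enzymes that set the flux through phosphofructokinase, 2 lactate transporters, 3 pyruvate dehydrogenase kinases, 3 HIF subunits, 5 oxygen sensors and HIF turnover genes, and 12 HIF targets. In the study, cells received CM-PEG-PLGA@DOX/R848 nanoparticles for 24 h, at an amount matching 2 µg/mL of doxorubicin, or phosphate-buffered saline (PBS) for the same time, with 3 mRNA libraries in each group. The particles carry doxorubicin (DOX), an anthracycline chemotherapy drug that damages DNA through topoisomerase II, and R848 (resiquimod), which stimulates the endosomal receptor TLR7. Cells given empty particles or free drugs were not analysed here, so carrier and cargo cannot be told apart. The oxygen level of the cultures was not stated in the labels. The labels do not say whether a group's 3 libraries were grown independently, and the p-values therefore rest on a spread among libraries that could be technical alone.

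Glycolysis splits glucose into pyruvate in the cytosol, and lactate dehydrogenase turns pyruvate into lactate, which leaves the cell through monocarboxylate transporters. Tumour cells commonly run this route even with oxygen present. HIF is a dimer of an oxygen-regulated alpha subunit (HIF-1 alpha from Hif1a or HIF-2 alpha from Epas1) and the constant partner ARNT; with oxygen, prolyl hydroxylases (the Egln genes) mark the alpha subunit for the VHL ubiquitin ligase, and FIH (Hif1an) blocks its coactivator contact. This control acts on the protein, so mRNA values of the subunits and sensors give no reading of HIF activity. HIF protein was not measured here, and the part of HIF in the changes of its targets was not tested. HIF switches on many glycolytic genes and also Egln3, Vegfa, Car9 and Bnip3.

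The values are FPKM (fragments per kilobase of transcript, scaled to sequencing depth), a unit inferred from the numbers, and the depth of the libraries is unknown. Genes at or above 1 FPKM numbered 10596 to 10622 in the nanoparticle libraries and 10618 to 10631 in the PBS libraries, while genes above 0 numbered 18319 to 18509 with nanoparticles and 13544 to 13808 with PBS. Pearson's r across tested genes was at least 0.9956 within a group and at most 0.8649 between groups. The cells carried mammary epithelial keratins, with 6 of 7 epithelial markers at 1 FPKM or more in every library and a summed level of 1110.3 to 1152 FPKM with nanoparticles and 800.3 to 814 FPKM with PBS. Epcam, the seventh, was 0.477 to 0.738 FPKM with nanoparticles and 0.436 to 0.754 FPKM with PBS. Of 7 leukocyte markers, 6 were under 1 FPKM in every library, with Ptprc and Adgre1 listed at 0 in all PBS libraries; the list summed to 6.75 to 9.42 FPKM with nanoparticles and 11.2 to 12.5 FPKM with PBS, most of it Cd14. Of 5 fibroblast markers, 3 were under 1 FPKM in every library, and the list summed to 7.60 to 9.29 FPKM with nanoparticles and 32.7 to 33.0 FPKM with PBS. Of 3 endothelial markers, 2 were under 1 FPKM in every library, with sums of 1.81 to 2.10 FPKM with nanoparticles and 8.36 to 8.54 FPKM with PBS. The part of these marker differences in the results was not tested.

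More of these genes fell than rose with nanoparticles. A gene was tested when it reached 1 FPKM in at least 3 libraries, which left 43 of the 46, and it was called at an adjusted p under 0.05 (limma on log2(FPKM + 1), Benjamini-Hochberg over 10863 genes). Called genes numbered 38 of 43, or 88.4%, close to the 86.4% of all tested genes that were called in either direction. The split between directions was 11 higher (25.6%) and 27 lower (62.8%), beside 40.5% higher and 46.0% lower among all tested genes. At 2-fold or more, 1 was higher (10.2% of all tested genes) and 11 were lower (25.6%, beside 13.5%). The median log2 fold change was -0.22 for the 43 genes and -0.06 for all tested genes. Eno1, Ldhb, Egln2, Kdm3a and Ddit4 were not called. Car9 stayed under 1 FPKM with nanoparticles and Adm with PBS, so each passed the filter through the other group and could move in 1 direction only. Slc2a3, Slc16a3 and Epas1 were below the level tested. A lower FPKM in bulk RNA does not tell fewer expressing cells from less RNA per cell. FPKM is also scaled to the depth of each library, so it gives no absolute amount of RNA.

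**Figure D1:**
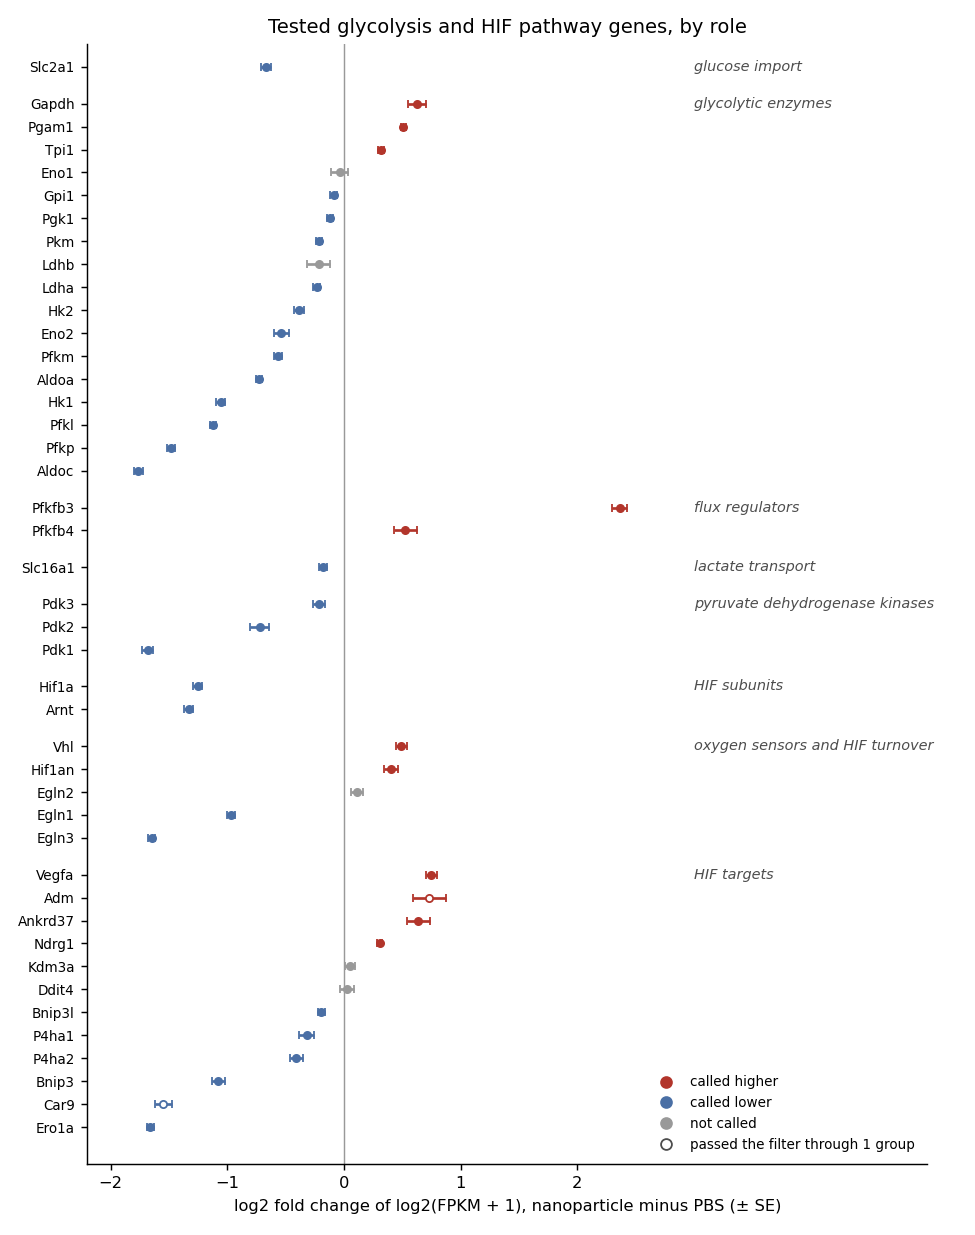
Log2 fold change (x axis, nanoparticle minus PBS, on the log2(FPKM + 1) scale) with its standard error for the 43 tested genes, in rows grouped by role. Red points were called higher, blue points lower and grey points not called, and open points passed the filter through 1 group. Pfkfb3 stands apart at 2.36, while Aldoc (-1.76), Pdk1 (-1.68), Ero1a (-1.66) and Egln3 (-1.65) are the lowest.

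Among the listed genes, the entry and upper part of the pathway was lower with nanoparticles. Slc2a1, which encodes the glucose transporter GLUT1, had 27.6, 30.3 and 29.7 FPKM in the nanoparticle libraries, against 47.9, 48.0 and 44.9 FPKM in the PBS libraries, 1.61-fold lower (log2 fold change -0.67, SE 0.0434, adjusted p = 2.78e-07, limma). The groups did not overlap, and GLUT1 was nearly the whole of the measured import pair, since Slc2a3 (GLUT3) was listed at 0 in every PBS library and at 0.0845 to 0.195 FPKM with nanoparticles, the libraries with more genes above 0. Hexokinase traps glucose as glucose 6-phosphate. Hk1, the constitutive form, had 19.4, 20.1 and 18.5 FPKM in the nanoparticle libraries, against 40.4, 41.5 and 42.2 FPKM in the PBS libraries (log2 fold change -1.06, SE 0.0393, adjusted p = 5.37e-09, limma). Hk2, the inducible form that is prominent in tumours, had 20.6, 22.3 and 21.3 FPKM in the nanoparticle libraries, against 28.9, 27.8 and 28.0 FPKM in the PBS libraries (log2 fold change -0.39, SE 0.0392, adjusted p = 7.79e-06, limma). Each library with nanoparticles was below each PBS library for both genes. Hk1 spans 111 kb and Hk2 49.4 kb, and genes of long span were mostly lower in this comparison. With the trend with span and exonic length over all tested genes removed, Hk1 still fell by 0.24 on the log2 scale, while Hk2 no longer passed (log2 fold change -0.08, adjusted p = 0.0834, limma). This joint trend with span and exonic length is called the span trend below.

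Phosphofructokinase, which commits sugar to glycolysis, had the lowest nanoparticle-to-PBS ratio of the enzyme steps. All 3 of its subunit genes fell. Pfkp, the platelet type, had 26.1, 27.2 and 26.6 FPKM in the nanoparticle libraries, against 76.4, 77.9 and 74.7 FPKM in the PBS libraries, 2.86-fold lower (log2 fold change -1.48, SE 0.0308, adjusted p = 1.54e-10, limma; GRCm38 chromosome 13, 6579768 to 6648777). Pfkl, the liver type, had 34.8, 34.6 and 34.7 FPKM in the nanoparticle libraries, against 76.9, 76.0 and 77.8 FPKM in the PBS libraries, 2.22-fold lower (log2 fold change -1.13, SE 0.0266, adjusted p = 3.23e-10, limma). Pfkm, the muscle type, had the smallest fold change and averaged 18.5 ± 0.132 FPKM with nanoparticles and 27.8 ± 0.533 FPKM with PBS (SD, n = 3 each; log2 fold change -0.57, adjusted p = 1.43e-07, limma). No library of one group reached the range of the other for any of the 3. Summed over the 3 genes the level was 79.8 ± 0.571 FPKM with nanoparticles and 181 ± 0.563 FPKM with PBS, a ratio of 0.441. With the span trend removed the fall of Pfkp (span 69.0 kb, exonic length 13401 bases) was 0.90 on the log2 scale.

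Aldolase cleaves the doubly phosphorylated sugar into trioses. Aldoa, the main form here, had 627, 601 and 589 FPKM in the nanoparticle libraries, against 1006, 996 and 1007 FPKM in the PBS libraries (log2 fold change -0.73, SE 0.0278, adjusted p = 6.47e-09, limma). Aldoc, the brain-type form, had 8.89, 8.64 and 8.95 FPKM in the nanoparticle libraries, against 32.1, 32.0 and 33.0 FPKM in the PBS libraries, and at 3.67-fold lower it was the enzyme gene with the largest fall (log2 fold change -1.76, SE 0.0369, adjusted p = 1.61e-10, limma). Both are short genes, of 5.52 and 4.81 kb, and neither overlapped between groups. Gpi1, the isomerase between hexokinase and phosphofructokinase, moved little, averaging 176 ± 2.09 FPKM with nanoparticles and 187 ± 4.48 FPKM with PBS (SD, n = 3 each; log2 fold change -0.09, adjusted p = 0.00966, limma), and it was not called once libraries were scaled by median of ratios (log2 fold change -0.03, adjusted p = 0.289, limma).

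The 3 enzyme genes that rose encode steps after aldolase, a part of the pathway in which Pgk1, Eno2, Pkm and Ldha were called lower. Pgam1, phosphoglycerate mutase, had 267, 274 and 273 FPKM in the nanoparticle libraries, against 189, 190.4 and 192 FPKM in the PBS libraries, 1.43-fold higher (log2 fold change 0.51, SE 0.0236, adjusted p = 2.36e-08, limma). Tpi1, triosephosphate isomerase, had 372, 368 and 377 FPKM in the nanoparticle libraries, against 291, 304 and 303 FPKM in the PBS libraries (log2 fold change 0.31, SE 0.0262, adjusted p = 1.8e-06, limma). Gapdh, the dehydrogenase often used as a loading control, had 69.4, 57.2 and 64.2 FPKM in the nanoparticle libraries, against 37.5, 42.4 and 42.5 FPKM in the PBS libraries, 1.56-fold higher (log2 fold change 0.63, SE 0.0757, adjusted p = 7.87e-05, limma). All 3 genes are under 10 kb in span (6.74, 3.71 and 4.75 kb), in which range 60.2% of all tested genes were called higher. With the span trend removed, Pgam1 kept its call at 0.16 and Gapdh at 0.27, while Tpi1 was at -0.03 with no call (adjusted p = 0.275, limma).

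The payoff enzymes at the end of the route moved by little. Pgk1, phosphoglycerate kinase, averaged 455 ± 10.5 FPKM with nanoparticles and 495 ± 5.71 FPKM with PBS (log2 fold change -0.12, adjusted p = 0.00146, limma). Pkm, the pyruvate kinase gene whose 2 splice forms are not separated in these values, had the highest level of the set and averaged 985 ± 18.9 FPKM with nanoparticles and 1144 ± 13.02 FPKM with PBS (log2 fold change -0.22, adjusted p = 1.89e-05, limma). Ldha, the lactate dehydrogenase subunit favoured in tumours, averaged 509.9 ± 8.03 FPKM with nanoparticles and 600.1 ± 21.8 FPKM with PBS (log2 fold change -0.23, adjusted p = 5.32e-05, limma; SD, n = 3 each). These 3 genes were 1.09-fold to 1.18-fold lower, and each was lower in every nanoparticle library than in any PBS library. Eno1, enolase, had 553, 454 and 459 FPKM in the nanoparticle libraries, against 499, 501 and 498 FPKM in the PBS libraries. Nanoparticle library 1 lay above the PBS libraries and the other two below them, and Eno1 was not called (log2 fold change -0.04, adjusted p = 0.633, limma); without nanoparticle library 1 it was called lower (-0.13, adjusted p = 0.000746), and likewise with the span trend removed (-0.32, adjusted p = 0.00464). Eno2, the neuronal enolase, fell and averaged 10.1 ± 0.499 FPKM with nanoparticles and 15.1 ± 1.29 FPKM with PBS (log2 fold change -0.54, adjusted p = 2.56e-05, limma). Ldhb, the heart-type subunit, was near the filter at 1.57 to 1.75 FPKM with nanoparticles and 1.63 to 2.40 FPKM with PBS and was not called (log2 fold change -0.22, adjusted p = 0.066, limma), though it was called lower without PBS library 1 (-0.33, adjusted p = 0.00498) and with the span trend removed (-0.50, adjusted p = 0.00112). With that trend removed the falls of Pgk1, Pkm, Ldha and Eno2 stood at -0.37, -0.36, -0.50 and -0.85 on the log2 scale. Summed over the 17 enzyme genes, the level was 4068 ± 94.1 FPKM with nanoparticles and 4759 ± 17.6 FPKM with PBS.

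Several of these genes have close copies that could take or lend reads. Of the distinct 31-base words in the annotated transcripts of Pgk1, 54.7% also occur in transcripts of another gene. That share was 37.1% for Pgam1, 34.7% for Pkm, 33.0% for Ldhb, 28.5% for Eno1 and 27.2% for Gapdh. It was 23.7% for Bnip3l and 20.3% for Bnip3, and lower for the other listed genes. For Gapdh, 48 other annotated genes share at least 10% of its words, and 2 of them, Gapdhrt2 and Gapdhrt, are in the table at 13.2 and 1.66 FPKM with nanoparticles and 10.2 and 1.15 FPKM with PBS. Gapdh itself averaged 63.6 FPKM with nanoparticles and 40.8 FPKM with PBS, below every other single-gene step of the pathway. Eno1b, an Eno1-related gene in the table, stood at 244.7 ± 3.51 FPKM with nanoparticles and 262.4 ± 4.62 FPKM with PBS (SD, n = 3 each). The sources used here do not say how reads with several matches were counted, so the levels of these genes are uncertain, and the part of shared reads in their changes was not tested.

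**Figure D2:**
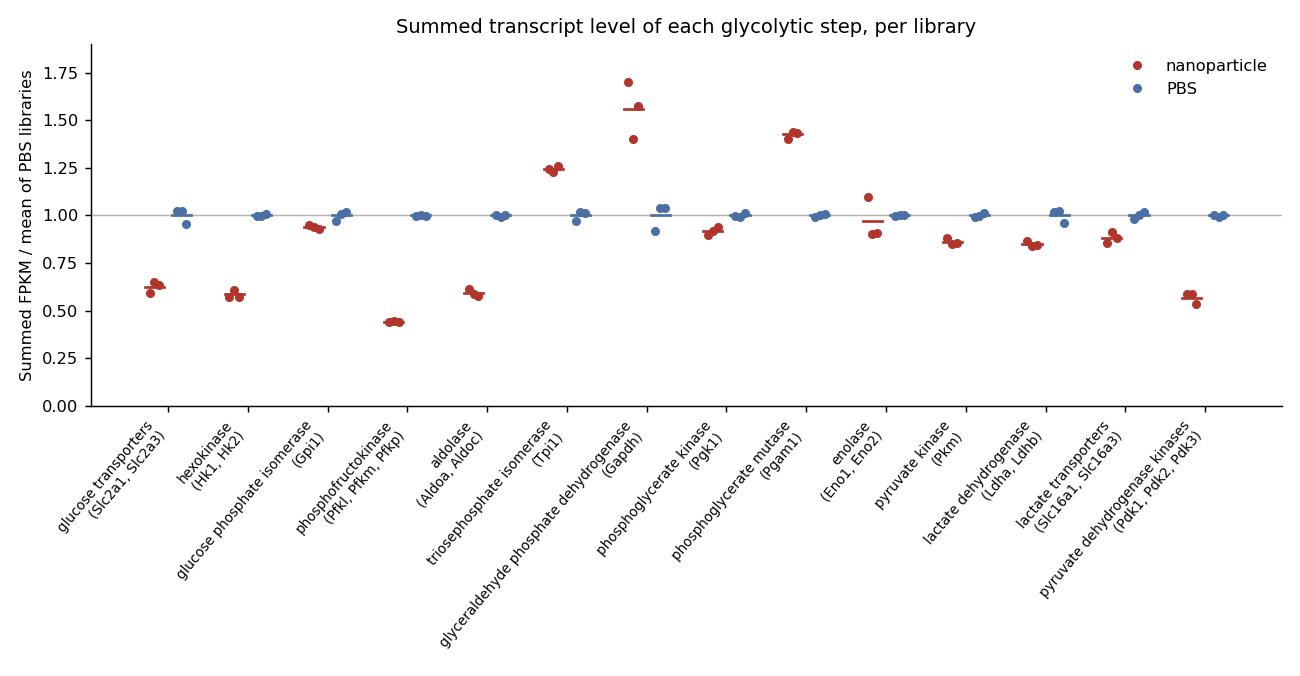
Summed FPKM of each step divided by its mean in the PBS libraries (y axis) for 14 steps from glucose import to the pyruvate dehydrogenase kinases (x axis); each point is 1 library and each line a group mean, with nanoparticle in red and PBS in blue. Phosphofructokinase is lowest at 0.441, hexokinase and aldolase lie at 0.585 and 0.593, and triosephosphate isomerase, glyceraldehyde phosphate dehydrogenase and phosphoglycerate mutase lie above 1.

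Pfkfb3 and Pfkfb4 went the other way from phosphofructokinase. They encode bifunctional enzymes that make and break fructose 2,6-bisphosphate, a strong activator of phosphofructokinase, with Pfkfb3 known for its high kinase activity. Pfkfb3 had 10.4, 9.96 and 10.6 FPKM in the nanoparticle libraries, against 1.10, 1.32 and 1.18 FPKM in the PBS libraries, 8.58-fold higher and the largest rise among the 43 genes (log2 fold change 2.36, SE 0.0623, adjusted p = 6e-10, limma; GRCm38 chromosome 2, 11471433 to 11554077). Its 82.6 kb span falls in the range of 30 to 100 kb in which 24.0% of all tested genes were called higher and 62.7% lower. Pfkfb4 had 4.24, 4.39 and 5.54 FPKM in the nanoparticle libraries, against 3.00, 2.59 and 3.32 FPKM in the PBS libraries (log2 fold change 0.53, SE 0.101, adjusted p = 0.000809, limma). The groups did not overlap for either gene. By mean FPKM over all libraries Pfkfb3 stood at percentile 25.8 of tested genes.

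The make-up of several families, taken over their listed genes only, differed between the groups. A share within a library does not depend on how libraries are scaled, but it is not adjusted for the trend with span. With that trend removed, the log2 fold changes were -0.24 for Hk1, -0.08 for Hk2, 3.01 for Pfkfb3 and 0.69 for Pfkfb4. Those of Pfkl, Pfkm and Pfkp were -1.24, -0.41 and -0.90. Shares were not recomputed in that setting. They are given as values without a test. The smallest p of an exact two-sided permutation test with 3 libraries against 3 is 0.1. Pfkfb3 made up 68.6 ± 2.76% with nanoparticles and 28.9 ± 4.27% with PBS of the summed FPKM of Pfkfb3 and Pfkfb4 (SD, n = 3 each), so the leading gene of the pair changed. Hk1 made up 47.5 ± 1.02% with nanoparticles and 59.4 ± 1.01% with PBS of the hexokinase pair, and here too the order turned, with Hk2 the larger part in every nanoparticle library and Hk1 in every PBS library. Pfkp accounted for 33.4 ± 0.441% with nanoparticles and 42.1 ± 0.788% with PBS of phosphofructokinase subunit transcripts, Pfkm for 23.1 ± 0.0164% with nanoparticles and 15.4 ± 0.285% with PBS, and Pfkl for 43.5 ± 0.438% with nanoparticles and 42.5 ± 0.599% with PBS. The listed aldolase, lactate dehydrogenase and glucose transporter pairs each kept 1 gene at over 96% in every library (Aldoa, Ldha and Slc2a1).

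**Figure D3:**
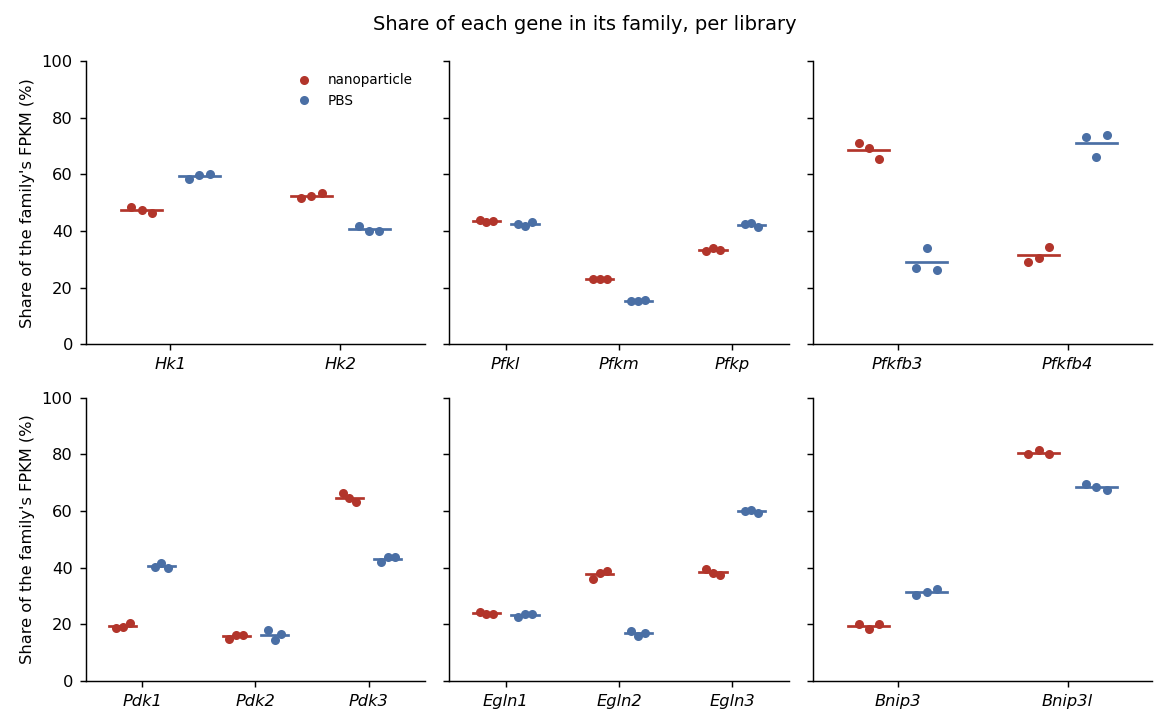
Share of each gene in the summed FPKM of the listed genes of its family (y axis, percent) for 6 families. Points are libraries and lines group means, with nanoparticle in red to the left and PBS in blue to the right. Pfkfb3 against Pfkfb4 and Hk1 against Hk2 exchange order between groups, and Pdk3 and Egln2 take larger shares with nanoparticles.

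The lactate transporter that passed the filter and all 3 pyruvate dehydrogenase kinases were called lower. Slc16a1 (MCT1), a transporter that moves lactate either way, averaged 91.1 ± 3.24 FPKM with nanoparticles and 103 ± 2.10 FPKM with PBS (SD, n = 3 each; log2 fold change -0.18, SE 0.0321, adjusted p = 0.000493, limma), with a log2 fold change of -0.38 once the span trend was removed. Slc16a3 (MCT4), an exporter known as a HIF target, was at most 0.103 FPKM in any library. The pyruvate dehydrogenase kinases switch off the enzyme that feeds pyruvate to the citric acid cycle. Pdk1, a HIF target, had 4.81, 4.88 and 4.76 FPKM in the nanoparticle libraries, against 17.5, 18.1 and 17.5 FPKM in the PBS libraries, 3.67-fold lower (log2 fold change -1.68, SE 0.0430, adjusted p = 4.9e-10, limma). Pdk2 had 3.76, 4.18 and 3.79 FPKM in the nanoparticle libraries, against 7.90, 6.28 and 7.20 FPKM in the PBS libraries (log2 fold change -0.72, adjusted p = 1.35e-05, limma). Pdk3 differed least, at 16.1 ± 1.23 FPKM with nanoparticles and 18.8 ± 0.423 FPKM with PBS (log2 fold change -0.22, adjusted p = 0.00436, limma), and with the span trend removed it was higher (0.27, adjusted p = 0.000765, limma; span 67.6 kb). Pdk1 made up 19.5 ± 0.925% with nanoparticles and 40.6 ± 0.984% with PBS of the 3 kinases and Pdk3 64.8 ± 1.66% with nanoparticles and 43.1 ± 1.08% with PBS (SD, n = 3 each).

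Both expressed HIF subunits fell. Hif1a, the oxygen-regulated alpha subunit, had 31.8, 32.5 and 30.003 FPKM in the nanoparticle libraries, against 75.3, 76.8 and 77.1 FPKM in the PBS libraries, 2.43-fold lower (log2 fold change -1.26, SE 0.0349, adjusted p = 8.36e-10, limma; GRCm38 chromosome 12, 73901375 to 73947530). Arnt, the constant partner, had 9.66, 9.68 and 9.24 FPKM in the nanoparticle libraries, against 25.1, 26.0 and 25.5 FPKM in the PBS libraries, 2.68-fold lower (log2 fold change -1.33, SE 0.0392, adjusted p = 1.17e-09, limma; GRCm38 chromosome 3, 95434388 to 95497240). The nanoparticle libraries lay below all PBS libraries for both. Epas1 was listed at 0 in every PBS library and at 0.139 to 0.249 FPKM with nanoparticles, so Hif1a was the alpha subunit gene that passed the filter. The spans are 46.2 kb for Hif1a and 62.9 kb for Arnt, and with the span trend removed the falls were 0.99 and 0.84 on the log2 scale, both still called.

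The genes that restrain HIF moved in both directions. Egln3 (PHD3), a prolyl hydroxylase that is itself a HIF target, had 21.7, 21.2 and 21.2 FPKM in the nanoparticle libraries, against 69.2, 68.7 and 69.4 FPKM in the PBS libraries, 3.24-fold lower (log2 fold change -1.65, SE 0.0285, adjusted p = 5.59e-11, limma; GRCm38 chromosome 12, 54178981 to 54203860), and had the smallest adjusted p of the set. Egln1 (PHD2), the main hydroxylase of HIF-1 alpha in most cells, had 13.2, 13.2 and 13.3 FPKM in the nanoparticle libraries, against 26.2, 26.8 and 27.8 FPKM in the PBS libraries (log2 fold change -0.97, SE 0.0373, adjusted p = 6.76e-09, limma). Neither gene overlapped between groups. Egln2 (PHD1) had 19.7, 21.3 and 21.9 FPKM in the nanoparticle libraries, against 20.2, 18.1 and 19.7 FPKM in the PBS libraries; its groups overlapped and it was not called (log2 fold change 0.11, adjusted p = 0.0796, limma), but it was called higher without nanoparticle library 1 (0.15, adjusted p = 0.0256) or PBS library 1 (0.14, adjusted p = 0.0489), and called lower with the span trend removed (-0.21, adjusted p = 0.00448). Vhl, the substrate receptor of the ligase, rose to 12.9, 12.5 and 13.4 FPKM in the nanoparticle libraries, against 8.57, 9.08 and 9.05 FPKM in the PBS libraries (log2 fold change 0.49, SE 0.0467, adjusted p = 4.68e-06, limma). Hif1an, the asparaginyl hydroxylase FIH, had 6.76, 7.11 and 6.47 FPKM in the nanoparticle libraries, against 5.01, 5.08 and 4.59 FPKM in the PBS libraries (log2 fold change 0.40, SE 0.0586, adjusted p = 0.000118, limma). Vhl and Hif1an were higher in every nanoparticle library than in any PBS library. With the span trend removed their log2 fold changes were 0.17 (adjusted p = 0.00879) and 0.15 (adjusted p = 0.0452, limma). Among the 3 Egln genes the share of Egln3 was 38.5 ± 1.11% with nanoparticles and 59.9 ± 0.524% with PBS and that of Egln2 37.7 ± 1.45% with nanoparticles and 16.8 ± 0.784% with PBS (SD, n = 3 each), which left both near the same level with nanoparticles.

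Of the 12 HIF targets outside glycolysis, 4 rose (33.3%), 6 fell (50%) and 2 were not called, near the 40.5% and 46.0% of all tested genes. These counts include Adm and Car9, whose direction the filter set, and the median log2 fold change was -0.08, beside -0.06 for all tested genes. Ero1a, the oxidase that drives disulphide formation in the endoplasmic reticulum, had 42.4, 43.0 and 40.6 FPKM in the nanoparticle libraries, against 137, 134 and 135 FPKM in the PBS libraries, 3.21-fold lower (log2 fold change -1.66, SE 0.0294, adjusted p = 6.25e-11, limma; GRCm38 chromosome 14, 45283087 to 45318771). Bnip3, a mitophagy receptor, had 19.7, 18.2 and 20.7 FPKM in the nanoparticle libraries, against 39.9, 43.0 and 43.9 FPKM in the PBS libraries (log2 fold change -1.08, SE 0.0534, adjusted p = 4.05e-08, limma). Both were lower in every nanoparticle library than in any PBS library. Its paralog Bnip3l fell by 0.19 on the log2 scale (-0.33 with the span trend removed), and the share of Bnip3 in the pair was 19.5 ± 0.849% with nanoparticles and 31.4 ± 1.03% with PBS (SD, n = 3 each). Car9, the membrane carbonic anhydrase often used as a hypoxia marker, had 0.357, 0.403 and 0.518 FPKM in the nanoparticle libraries, against 3.03, 3.19 and 3.29 FPKM in the PBS libraries, 7.44-fold lower on the FPKM scale; the filter let it pass only through its PBS values, so its fall is given as a level. The collagen prolyl hydroxylase subunits P4ha1 and P4ha2 fell by 0.32 and 0.41 on the log2 scale, with adjusted p = 0.000978 and 5.69e-05 (limma). P4ha1 was not called with the span trend removed (-0.03, adjusted p = 0.706).

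The targets that rose included the angiogenic factor. Vegfa had 36.4, 35.0 and 35.7 FPKM in the nanoparticle libraries, against 20.1, 20.1 and 22.5 FPKM in the PBS libraries, 1.71-fold higher (log2 fold change 0.75, SE 0.0469, adjusted p = 2.17e-07, limma; GRCm38 chromosome 17, 46016993 to 46032369). Ankrd37, an ankyrin repeat gene, had 7.03, 7.02 and 6.89 FPKM in the nanoparticle libraries, against 4.09, 3.39 and 5.03 FPKM in the PBS libraries (log2 fold change 0.64, SE 0.102, adjusted p = 0.000263, limma). Ndrg1, a stress-responsive gene that was also the most abundant of the targets, had 217, 224 and 221 FPKM in the nanoparticle libraries, against 179, 177 and 179.7 FPKM in the PBS libraries (log2 fold change 0.30, SE 0.0242, adjusted p = 1.24e-06, limma). No group overlapped with the other for these 3. With the span trend removed the log2 fold change of Vegfa was 0.48, that of Ankrd37 0.26 (adjusted p = 0.0359, limma) and that of Ndrg1 0.49. Adm, the vasodilator peptide adrenomedullin, had 2.67, 1.81 and 1.49 FPKM in the nanoparticle libraries, against 0.982, 0.743 and 0.632 FPKM in the PBS libraries, with its PBS values all under the filter; its log2 fold change was 0.73, and 0.34 with the span trend removed. Kdm3a, a histone H3 lysine demethylase, averaged 18.99 ± 0.628 FPKM with nanoparticles and 18.3 ± 0.442 FPKM with PBS and Ddit4 (REDD1), an mTORC1 inhibitor, 43.4 ± 3.87 FPKM with nanoparticles and 42.5 ± 0.797 FPKM with PBS (SD, n = 3 each), and neither was called (adjusted p = 0.25 and 0.688, limma). Ddit4 was called higher without nanoparticle library 1 (0.10, adjusted p = 0.0194) and lower with the span trend removed (-0.35, adjusted p = 0.000339). Kdm3a was called higher with the span trend removed (0.32, adjusted p = 3.21e-05).

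**Figure D4:**
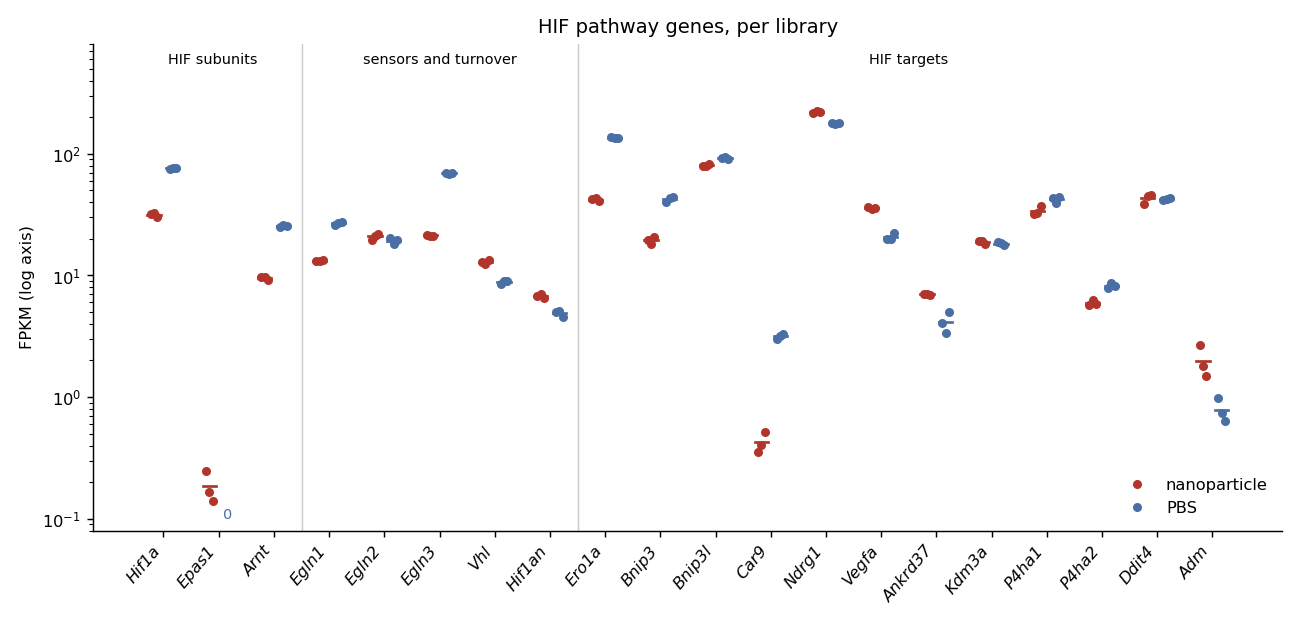
FPKM (y axis, log scale) of the 20 HIF subunits, sensors and targets in each library; points are libraries and lines group means, with nanoparticle in red to the left and PBS in blue to the right. Epas1 is listed at 0 in the PBS libraries. Hif1a, Arnt, Egln1, Egln3, Ero1a, Bnip3 and Car9 lie lower with nanoparticles, while Vegfa, Ankrd37, Vhl and Adm lie higher.

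The promoters of targets that moved in opposite directions both carried the core of the HIF binding element. The 250 bases before the annotated start (RefSeq, GRCm38.p6) were searched on both strands for ACGTG and GCGTG; a palindromic CACGTG, which is also an E-box, counts on each strand. A window with at least 1 match was found at 46 of 60 starts of the 42 genes in the promoter table (76.7%) and at 38.6% of all starts. The latter share covers all annotated genes, matched neither for expression nor for base composition, so the 2 shares do not show enrichment. Among called genes the share of starts with a match was 66.7% of 12 for those called higher and 78.4% of 37 for those called lower. It was 81.8% of 11 for listed genes not called or not tested. Bnip3 and Ero1a, called lower, and Pfkfb3 and Ankrd37, called higher, are printed here 5 prime to 3 prime with the matched letters in capitals, as ACGTG or GCGTG or as their complements CACGT or CACGC; for Pfkfb3, which has 2 starts in the table, the one with more matches is given.
Bnip3, chr7:138909507-138909756, minus strand: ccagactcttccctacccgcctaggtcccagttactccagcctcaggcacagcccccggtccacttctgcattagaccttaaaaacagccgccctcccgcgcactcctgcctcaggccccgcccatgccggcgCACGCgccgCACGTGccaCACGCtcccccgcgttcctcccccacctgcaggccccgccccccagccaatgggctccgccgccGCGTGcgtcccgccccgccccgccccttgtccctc
Ero1a, chr14:45318573-45318822, minus strand: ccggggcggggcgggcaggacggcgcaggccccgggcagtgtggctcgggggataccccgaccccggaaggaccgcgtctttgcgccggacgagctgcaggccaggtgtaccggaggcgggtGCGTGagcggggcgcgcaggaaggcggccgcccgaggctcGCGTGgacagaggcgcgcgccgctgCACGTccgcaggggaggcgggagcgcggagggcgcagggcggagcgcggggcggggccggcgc
Pfkfb3, chr2:11502091-11502340, minus strand: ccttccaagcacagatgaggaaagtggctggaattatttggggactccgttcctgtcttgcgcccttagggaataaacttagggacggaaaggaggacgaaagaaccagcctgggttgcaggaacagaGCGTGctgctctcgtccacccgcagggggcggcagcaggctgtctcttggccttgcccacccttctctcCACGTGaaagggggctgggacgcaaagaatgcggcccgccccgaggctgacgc
Ankrd37, chr8:45999851-46000100, minus strand: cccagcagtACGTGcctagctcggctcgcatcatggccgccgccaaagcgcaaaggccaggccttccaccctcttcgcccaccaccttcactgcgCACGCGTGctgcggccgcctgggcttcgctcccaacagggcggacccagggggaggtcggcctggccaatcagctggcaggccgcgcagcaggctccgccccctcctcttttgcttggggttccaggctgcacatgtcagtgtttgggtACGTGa
Bnip3 held 5 matches, Ankrd37 4, and Ero1a and Pfkfb3 3 each. A match describes these letters only, and binding was not measured.

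The wider pathway was read from 109 further genes of glucose use and HIF signalling, of which 83 were tested: 37 rose (44.6%), 38 fell (45.8%) and 8 were not called, close to the 40.5% and 46.0% of all tested genes. Among other glycolytic isoforms and gluconeogenic genes, 8 of 14 rose (57.1%) and 4 fell (28.6%). Tigar, a phosphatase that lowers fructose 2,6-bisphosphate and is known as a p53 target, rose 4.39-fold and averaged 6.38 ± 0.342 FPKM with nanoparticles and 1.45 ± 0.152 FPKM with PBS (SD, n = 3 each). Pgam2 and Bpgm, mutases of bisphosphoglycerate and phosphoglycerate, rose by 1.07 and 0.93 on the log2 scale. Pck2, the mitochondrial enzyme that makes phosphoenolpyruvate, averaged 8.47 ± 0.604 FPKM with nanoparticles and 49.6 ± 4.59 FPKM with PBS (log2 fold change -2.42, adjusted p = 2.11e-09, limma). The sugar transporters Slc2a9 and Slc2a8 fell by 1.67 and 1.13.

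Genes of mitochondrial pyruvate use and of the pentose branch were called in both directions, as were all tested genes (40.5% higher and 46.0% lower). Of 9 tested genes of pyruvate entry, 4 rose (44.4%), 3 fell (33.3%) and 2 were not called: Pdhb, a subunit of pyruvate dehydrogenase, rose by 0.79, and its activating phosphatases Pdp1 and Pdp2 rose by 0.44 and 0.28, while the carrier subunit Mpc1 fell by 0.85, Pdha1 by 0.16 and Dlat by 0.16 (log2 scale). In the citric acid cycle 8 of 17 rose (47.1%) and 7 fell (41.2%). Mdh2, mitochondrial malate dehydrogenase, averaged 340.4 ± 6.49 FPKM with nanoparticles and 160.2 ± 4.27 FPKM with PBS (SD, n = 3 each; log2 fold change 1.08, adjusted p = 5.7e-10, limma), with Sdhb and Idh3a up by 0.84 and 0.82. Suclg2, with a span of 246 kb, fell by 1.11, Ogdh by 0.61 and Sdhc by 0.57. The pentose phosphate pathway, which branches from glucose 6-phosphate to make NADPH and ribose, had 3 rises (37.5%) and 4 falls (50%) among 8 genes: Pgd rose by 0.56, Taldo1 by 0.39 and Rpia by 0.36, whereas Pgls fell by 1.31, H6pd by 0.63 and Tkt by 0.25.

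Of 12 tested HIF partners, 5 rose (41.7%) and 7 fell (58.3%), beside 40.5% and 46.0% of all tested genes. The adaptors of the VHL complex, Elob and Eloc, rose by 1.09 and 0.96 on the log2 scale. Cul2 and Rbx1, also of that complex, went apart, with Cul2 lower by 0.61 and Rbx1 higher by 0.61. Cited2, which competes with HIF for its coactivators, rose by 0.98. The coactivator genes Crebbp (span 133 kb) and Ep300 (66.7 kb) fell, while Elob, Eloc and Cited2 span 4.40, 15.3 and 2.46 kb. Genes of long span were mostly lower among all tested genes. Crebbp averaged 1.73 ± 0.0227 FPKM with nanoparticles and 4.39 ± 0.0613 FPKM with PBS, and Ep300 averaged 5.07 ± 0.172 FPKM with nanoparticles and 10.4 ± 0.174 FPKM with PBS (SD, n = 3 each). Cited4, a relative of Cited2, averaged 3.98 ± 0.766 FPKM with nanoparticles and 32.1 ± 0.744 FPKM with PBS (log2 fold change -2.75, adjusted p = 1.65e-08, limma). Among 23 tested further HIF targets, 9 rose (39.1%), 13 fell (56.5%) and 1 was not called, beside 40.5% and 46.0% of all tested genes. At 2-fold or more the balance was the other way, with 8 higher (34.8%) and 3 lower (13.04%), beside 10.2% and 13.5% of all tested genes. Angptl4 and Edn1 averaged 18.8 and 3.42 FPKM with nanoparticles and stayed under 1 FPKM in each PBS library; they passed the filter through 1 group, which set their direction. Gbe1, the glycogen branching enzyme, fell by 1.72 (span 256 kb), Ankzf1 by 1.41 and the phosphoglucomutase gene listed as Pgm1 by 1.01.

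Genomic span moved with the fold change across the transcriptome. Spearman's rho of log2 fold change with span was -0.49 over 10836 tested genes and -0.30 over the 43 genes described here; these are descriptions across genes, which are not independent replicates. Among all tested genes the share called lower was 25.7% under 10 kb, 32.1% from 10 to 30 kb, 62.7% from 30 to 100 kb and 89.5% above 100 kb. The glycolysis and HIF genes were lower in 4 of 12 under 10 kb, 11 of 15 from 10 to 30 kb, and 11 of 15 from 30 to 100 kb, and Hk1, the 1 gene above 100 kb, was lower too. Their median log2 fold change was 0.21 under 10 kb, -0.22 from 10 to 30 kb, -0.41 from 30 to 100 kb and -1.06 above 100 kb, beside 0.34, 0.17, -0.34 and -1.10 for all tested genes of those spans. With the trend with span and exonic length removed, 12 of the 43 were called higher (27.9%) and 28 lower (65.1%). Among all tested genes under the same setting, 40.6% were higher and 43.8% lower.

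**Figure D5:**
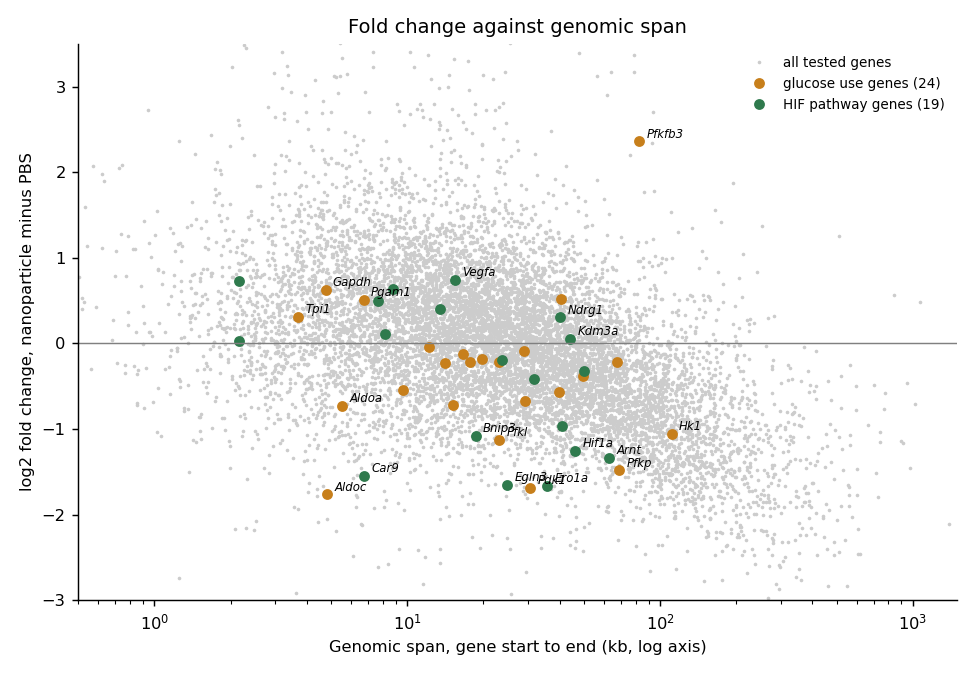
Log2 fold change (y axis, nanoparticle minus PBS) against genomic span from gene start to gene end in kb (x axis, log scale) for all tested genes in grey, with the 24 tested glucose use genes in orange and the 19 tested HIF pathway genes in green; 71 tested genes lie outside the axes. Pfkfb3 lies high for its span, while Aldoc, Car9, Egln3 and Pdk1 lie low at spans of 4.81 to 30.6 kb.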

How the data were processed

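Gene expression was measured by mRNA sequencing of 4T1 cells, with 3 nanoparticle and 3 PBS libraries grouped by their labels. The deposited table gives FPKM values; the unit is inferred from the values, since the header names none. The submitters' processing notes name STAR, featureCounts and the builds GRCm38 and mm10, while versions, annotation release and the program behind the FPKM were not given there. Low values showed no 1-read step (at most 1.80% of ratios in any 1% bin), so counts could not be recovered and a log scale was used. Features without a gene identifier (701, at most 0.67% of summed FPKM) were left out. Genes that reached 1 FPKM in at least 3 libraries were fitted on log2(FPKM + 1) with limma 3.58.1 in R 4.3.3 (trend and robust; statmod 1.5.0), without a replicate block, two-sided, with Benjamini-Hochberg over 10863 genes. A fold change on this scale understates that of low genes. The fit was tested on simulated data. Span and exonic length come from GENCODE M21 (99.8% of tested genes matched). Python 3.11.15, numpy 2.4.6, pandas 2.3.3 and matplotlib 3.10.9 made the summaries. The genes, lists and tests were chosen with earlier results of these data known. Every listed gene was accounted for, with values per library for those of smallest adjusted p in each role; of the wider lists, up to 3 of the largest called rises and falls of each, 1 of which is not reported here. Alternatives were another pseudocount, other filters, thresholds and scalings, a replicate block, leaving out each library, and removing the span and length trend.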

Additional observations from a re-analysis of the deposited data

How the results depend on the processing

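Of the 38 called genes, 33 kept their call and direction in each of up to 15 alternatives besides the 1.5-fold test, though Adm, Car9 and Pfkfb4 left the test under some of them; Gpi1, Hk2, P4ha1, Pdk3 and Tpi1 did not. Tested against a 1.5-fold change, 2 of the 43 were higher (4.65%) and 13 lower (30.2%). Of the 83 other pathway genes, 22 were higher (26.5%) and 15 lower (18.1%). Of all 10863 tested genes, 1853 were higher (17.1%) and 2341 lower (21.55%). With no filter, 8445 genes were called higher, from 20124 tested. On the TPM scale the median of all genes was -0.19, against -0.06, and Ddit4 (-0.13), Egln2 (-0.038) and Kdm3a (-0.10) turned negative without a call, while Eno1 (-0.19) and Ldhb (-0.39) were called lower; median-of-ratios scaling turned Eno1 to 0.021 and called Egln2 (0.17) and Kdm3a (0.11) higher. Removing the span and length trend turned Ddit4 (-0.35), Egln2 (-0.21), Tpi1 (-0.032) and Pdk3 (0.27). Across the 6 fits that leave out a library, Ddit4 ranged from -0.015 to 0.10 and Eno1 from -0.13 to 0.012. In these fits the listed genes called numbered 10 to 12 higher (23.8% to 28.6%) and 26 to 28 lower (61.9% to 66.7%). Among all tested genes 38.4% to 40.7% were higher and 43.9% to 46.6% lower. With a pseudocount of 0.1 FPKM, Car9 stood at -2.65 and Adm at 1.22. A replicate block changed no listed gene's call (11 higher, 27 lower). The labels do not say whether same-numbered libraries were paired. Deviations of same-numbered libraries correlated at -0.01, -0.04 and 0.04, beside -0.08 to 0.09 for libraries of unlike number. These correlations cannot show how the libraries were prepared. The causes of these changes were not tested. Depth is unknown, so no counting error can be given for genes near or under 1 FPKM.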
